A study of Mus musculus with 6 samples.

Results

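The C/EBP transcription factors were followed through cultured mouse pancreatic islets exposed to cisplatin. The family was picked on a measured value, the rise of Cebpd with cisplatin, and its members are all probe rows whose gene symbol is Cebpa, Cebpb, Cebpd, Cebpg or Cebpz. This gave 8 of 30146 probe rows, for 5 of 21400 gene symbols, and 6 rows of 4 genes were abundant enough to be tested. Islets of 3 wild-type male C57Bl/6 mice were divided between 10 uM cisplatin, a platinum drug that crosslinks DNA, and its vehicle, 0.9% saline, in complete RPMI medium for 48 h. Every mouse gave 1 library per arm, so the groups hold 3 cisplatin and 3 vehicle libraries, and ages are not given in the labels. RNA was read with TempO-Seq, in which pairs of detector oligonucleotides are ligated on their target RNA in a lysate and counted by sequencing, so that each row reports the stretch under 1 probe.

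C/EBP proteins are basic leucine zipper factors that bind DNA as dimers with each other and with relatives such as ATF4 and CHOP. C/EBP beta and C/EBP delta are known for their induction by inflammatory cytokines and stress, in beta cells among other tissues, and for driving acute phase genes, while C/EBP alpha acts in the differentiation of liver, fat and myeloid cells. C/EBP gamma has little activation capacity of its own and serves mainly as a dimer partner. The protein of Cebpz is no leucine zipper factor: it shares the CCAAT-binding name, and its yeast relative acts in the assembly of the large ribosomal subunit.

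RefSeq promoter windows on GRCm38.p6 were matched for 3 of the 5 genes, Cebpa, Cebpb and Cebpg. No window was matched for Cebpd, whose rise picked the family, or for Cebpz. The 250 bases before the start are shown for Cebpb and Cebpa, because the 2 windows differ in the promoter letters they carry. A link between promoter letters and the response to cisplatin was not tested. Capitals mark TATAAA in the Cebpa window (chr7:35119043-35119292, plus strand) and TGACG, the core of the cAMP response element, on either strand in the Cebpb window (chr2:167688665-167688914, plus strand).

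Cebpa: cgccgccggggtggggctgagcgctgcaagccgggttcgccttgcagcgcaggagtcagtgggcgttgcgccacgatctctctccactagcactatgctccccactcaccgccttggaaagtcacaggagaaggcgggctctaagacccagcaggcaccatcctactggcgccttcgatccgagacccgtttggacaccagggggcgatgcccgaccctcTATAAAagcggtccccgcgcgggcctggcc
Cebpb: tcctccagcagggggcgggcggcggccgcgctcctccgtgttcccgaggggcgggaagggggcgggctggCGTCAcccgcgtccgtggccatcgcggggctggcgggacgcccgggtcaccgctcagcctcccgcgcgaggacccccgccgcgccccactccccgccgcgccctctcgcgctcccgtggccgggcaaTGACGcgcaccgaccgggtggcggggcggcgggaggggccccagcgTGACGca

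The Cebpb window held 3 matches to TGACG, beginning 180, 53 and 7 bases before the start, and the Cebpa and Cebpg windows held none. TGACG occurred on either strand in 17.8% of 32851 RefSeq windows of this length, and it was added to the search after the Cebpb letters had been seen. TATAAA lay 30 bases before the Cebpa start and occurred in 12.4% of windows. The full cAMP response element TGACGTCA, the C/EBP site pattern TTGCNNAA and the STAT site TTCNNNGAA were in none of the 3 windows. They occurred in 1.55%, 9.56% and 7.02% of all windows. The CCAAT box was found 2 times in the Cebpg window, 89 and 28 bases before the start, and in 33.9% of all windows. The 3 windows were rich in G and C, with 66.4% for Cebpa, 81.6% for Cebpb and 70.8% for Cebpg against a median of 52.4%. A match describes letters only and shows no binding. In the same assembly Cebpg and Cebpa are neighbours with 1 annotated non-coding gene between them.

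The libraries held 1116916 to 1366829 counts with cisplatin and 1470227 to 2272276 with vehicle, so rows with few counts are less precise in the cisplatin arm. The damage-response gene Cdkn1a, an inhibitor of the cell cycle, went from 43.7 ± 15.9 to 951 ± 52.9 CPM (SD, n = 3), where CPM stands for TMM-scaled counts-per-million and unscaled CPM for the same on library totals. Of the 9381 tested rows 25.0% were called at an adjusted p under 0.05, 11.1% higher and 13.9% lower with cisplatin. All p-values measure the spread between 3 libraries per arm, each from another mouse. Islet hormone genes were abundant, with at least 19560 counts of Ins1, an insulin gene, and 7312 of Gcg, the glucagon gene, in each library. Of 10 beta cell markers 8 were tested. The others, Pdx1 and Slc30a8, were low, with 0 to 24 and 0 to 2 counts per library. Acinar and adipocyte markers were near the detection limit, with 5.12 to 43.9 and 0 to 3.96 unscaled CPM for whole lists, while neutrophil markers summed to at most 7.32. Duct markers summed to 921 to 1633 unscaled CPM. Of these Krt7 read 1194 ± 229 CPM with vehicle and 1396 ± 562 CPM with cisplatin, while Krt19 had 0 to 6 counts per library.

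Cebpd was the member that rose, and Cebpb rose by less. Among the 6 tested C/EBP rows 3 were called higher, the Cebpd row and both Cebpb rows, and 0 lower (edgeR; 0 lower also at an unadjusted p under 0.05 and by DESeq2). The share called among all rows is the 11.1% higher and 13.9% lower given above. How many of all tested rows had groups without overlap was not counted. Separation of the groups in a member row is therefore a description only. Because the rise of Cebpd in this contrast picked the family, the values and calls of all members describe that choice: no p is given for them, and nothing is read from their count of calls, here or under other settings. The count was 1, the Cebpd row alone, on the scale of library totals, in the unfiltered fit, and with cisplatin library 3 or any single vehicle library left out.

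**Figure D1:**
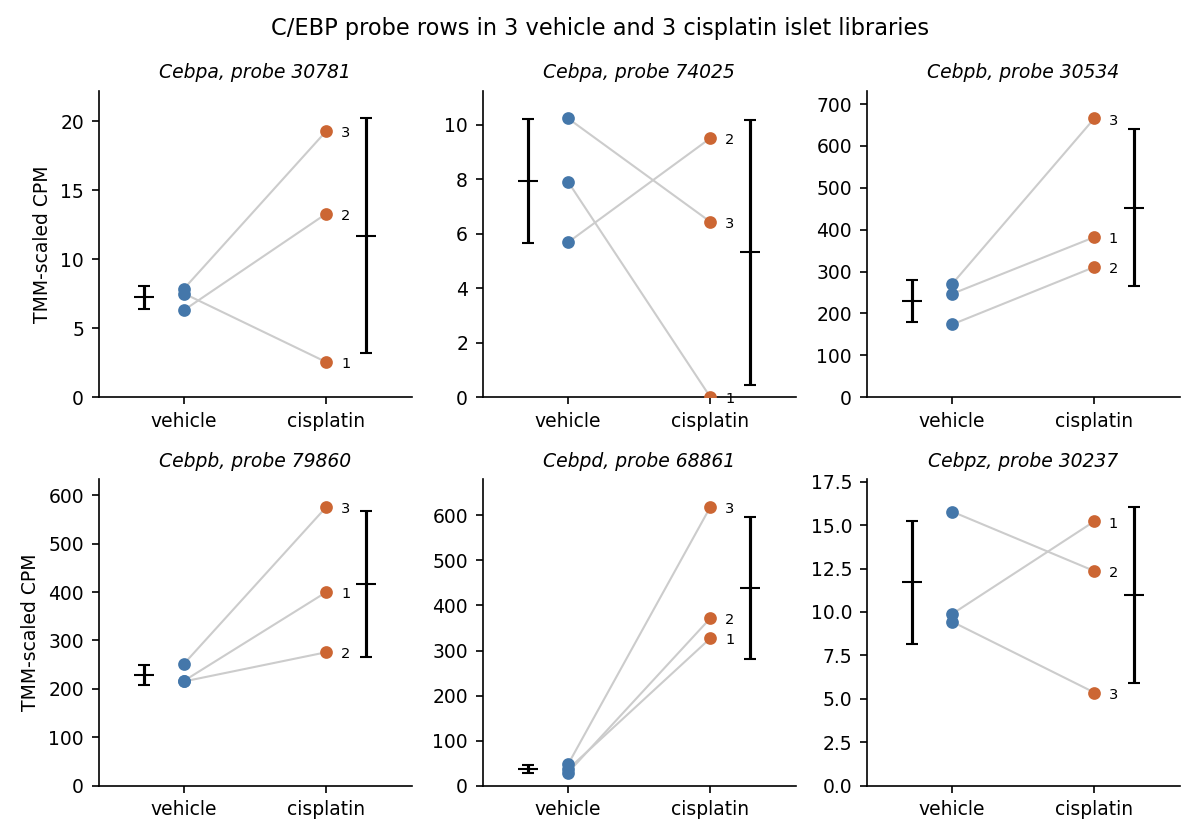
TMM-scaled CPM of the 6 tested C/EBP probe rows, with a separate linear axis from 0 for each row. Points are libraries, grey lines join both libraries of a mouse, numbers give the mouse, and bars give the mean ± SD of 3 libraries. The 3 cisplatin libraries lie above all vehicle libraries for Cebpd and for both Cebpb rows, while the groups overlap for both Cebpa rows and for Cebpz. The share of all tested rows without overlap was not counted, so nothing is read from this separation.

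Cebpd, the gene of C/EBP delta, is read by 2 probes. Probe 68861 had 92, 46 and 120 counts in vehicle libraries 1, 2 and 3 and 387, 391 and 577 in the cisplatin libraries of the same mice. After scaling these were 36.4, 29.0 and 47.2 CPM with vehicle and 327, 372 and 619 CPM with cisplatin. Every cisplatin library was above every vehicle library, and cisplatin library 3 was the highest. The means were 37.5 ± 9.15 and 439 ± 157 CPM (SD, n = 3), an 11.6-fold difference (log2 fold change 3.54 ± 0.34, SE). Within mice, paired by the labels, the log2 difference was 3.16, 3.66 and 3.71. On library totals alone the signal was 290 to 422 unscaled CPM with cisplatin and 31.3 to 52.8 with vehicle, so the groups stood apart on that scale too. The log2 fold change ran from 3.01 to 3.82 over 14 alternative analyses. Among the 9381 tested rows it held rank 64 from the highest. These are bulk lysates, in which fewer cells of a type and less RNA per cell cannot be told apart.

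The other Cebpd probe, 30192, was almost silent. It had 2 counts in cisplatin library 1 and 0 in the other 5 libraries, where 3 counts would have been 1.32 to 2.23 unscaled CPM. It was too low to test, and no fold is given because both groups lie under 3 counts. Probe 68861 collected 1355 counts with cisplatin and 258 with vehicle, so the 2 probes of this gene differ widely in signal. Which stretch of the transcript either probe covers was not used, so the rise of Cebpd rests on 1 probe.

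Cebpb, the gene of C/EBP beta, gave nearly the same picture with each of its 2 probes. Probe 30534 read 247, 174 and 270 CPM in vehicle libraries 1, 2 and 3 and 382, 311 and 666 CPM with cisplatin. Probe 79860 read 217, 215 and 252 CPM and then 400, 276 and 576 CPM. In both rows the cisplatin libraries were above all vehicle libraries, library 3 stood highest and library 2 lowest among them. Group means went from 230 ± 50.3 to 453 ± 188 CPM and from 228 ± 20.8 to 417 ± 151 CPM (SD, n = 3), with log2 fold changes of 0.97 ± 0.32 and 0.87 ± 0.30 (SE).

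The size of the Cebpb difference moved with the scale and with single libraries. Without cisplatin library 3 it was 0.60 and 0.58 on the log2 scale, and without vehicle libraries 1, 2 or 3 it stayed at 0.80 to 1.09, in each case not called. With library totals as the only scale it was 0.45 and 0.38, not called either, and the groups overlapped: cisplatin library 2 held 242 and 215 unscaled CPM against 312 and 274 in vehicle library 1. That scale moved the median of all tested rows from -0.07 to -0.54, so relative to the other rows the Cebpb rows were still higher. The mouse differences were 0.63, 0.84 and 1.30 for probe 30534 and 0.89, 0.36 and 1.19 for probe 79860, all above 0.

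Counts of 2 probes in the same library can be set against each other with no scaling at all. The ratio of Cebpd probe 68861 to Cebpb probe 30534 was 0.147, 0.167 and 0.175 in the vehicle libraries and 0.856, 1.20 and 0.929 in the cisplatin libraries. Against the other Cebpb probe it was 0.168, 0.135 and 0.188, then 0.818, 1.35 and 1.07. The ranges did not overlap with either probe, and the ratio of both Cebpb probes to each other was 0.806 to 1.14 with vehicle and 0.956 to 1.16 with cisplatin. Of all counts in the 8 C/EBP rows, Cebpd took 6.52% to 7.91% with vehicle and 29.1% to 37.4% with cisplatin. The exact 95% binomial intervals, which cover counting error only, were 4.81% to 9.38% over the vehicle libraries and 26.7% to 40.4% over the cisplatin libraries. Cebpb took 87.3% to 88.1% and then 59% to 69.3%. Since probes differ in efficiency, these shares compare libraries and do not give the amounts of RNA of the genes.

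**Figure D2:**
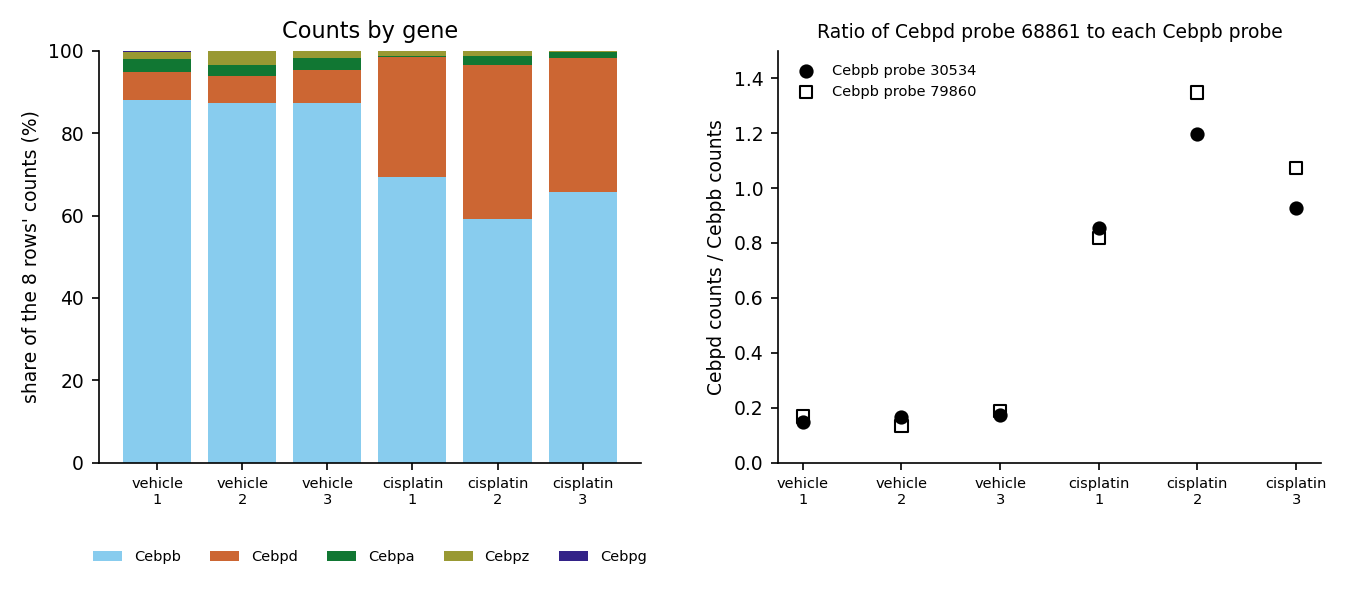
Left, the share of counts in the 8 C/EBP rows taken by each gene (percent, stacked bars) in each library. Right, counts of Cebpd probe 68861 divided by counts of each Cebpb probe in the same library. The Cebpd share is 6.52% to 7.91% in the vehicle libraries and 29.1% to 37.4% in the cisplatin libraries, and no ratio of the vehicle libraries reaches those of the cisplatin libraries.

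Cebpa, the gene of C/EBP alpha, was low and uneven. Probe 30781 had 19, 10 and 20 counts with vehicle and 3, 14 and 18 with cisplatin, or 7.23 ± 0.82 and 11.7 ± 8.50 CPM (SD, n = 3). Probe 74025 had 20, 9 and 26 counts and then 0, 10 and 6, or 7.94 ± 2.28 and 5.31 ± 4.85 CPM. The groups overlapped in both rows, and cisplatin library 1 was the lowest of all libraries in both. The log2 fold changes were 0.67 ± 0.77 and -0.61 ± 0.97 (SE), opposite in sign and neither called. Without cisplatin library 1 they were 1.26 and 0.09, and with both probes summed 0.11. With 3 counts or fewer in that library, a difference of this size was not resolved at this depth.

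Cebpg, the gene of the dimer partner C/EBP gamma, had 3, 0 and 2 counts with vehicle and 0 in all cisplatin libraries. The 5 vehicle counts amount to 0.871 unscaled CPM, while 0 counts with cisplatin allow up to 0.783 unscaled CPM (3 counts over the group), so a difference was not detectable at this depth. Cebpz had 25, 25 and 24 counts with vehicle and 18, 13 and 5 with cisplatin, or 11.7 ± 3.54 and 11.0 ± 5.07 CPM (SD, n = 3). The groups overlapped, cisplatin library 3 was lowest, and the log2 fold change was -0.07 ± 0.65 (SE), which ranged from -0.46 to 0.26 over the alternatives. Cebpz overlaps Cebpzos on the opposite strand, and whether its probe lies in the overlap was not tested.

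In untreated islets the order of the probe signals was therefore Cebpb, Cebpd, Cebpz, Cebpa and Cebpg. The mean vehicle CPM of the Cebpb rows was above that of about 95% of tested rows, that of Cebpd above 61.0%, that of Cebpz above 21.6% and those of Cebpa above 7.06% and 9.20%. Cebpb and Cebpd did not overlap in any vehicle library, and Cebpd and Cebpz did not either. Cebpz (9.45 to 15.8 CPM) and Cebpa probe 74025 (5.68 to 10.2 CPM) overlapped across vehicle libraries. With cisplatin the Cebpd signal of 327 to 619 CPM lay within the span of the Cebpb rows, 276 to 666 CPM. This is an order of probe signals, not of RNA amounts.

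**Figure D3:**
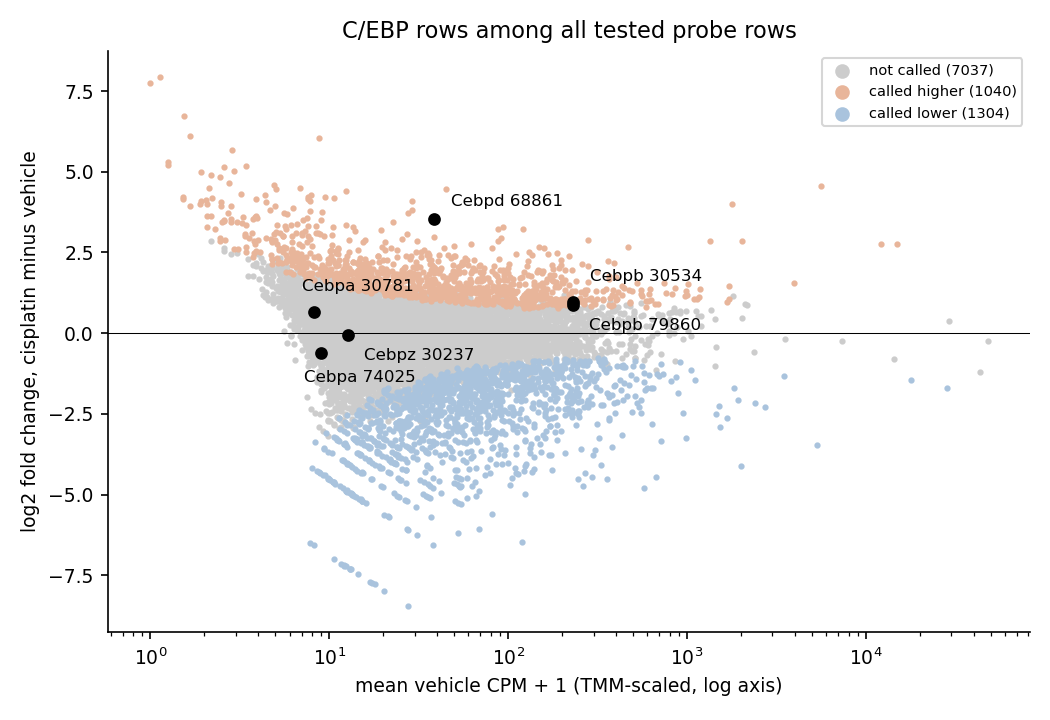
Each point is 1 of the 9381 tested probe rows, with the mean vehicle CPM plus 1 on a log axis and the log2 fold change of cisplatin minus vehicle. Colours give rows called higher (1040), lower (1304) or not called, and black points are the C/EBP rows. Cebpd lies at 3.54, the Cebpb rows lie at 0.97 and 0.87, and the Cebpa and Cebpz rows lie within 0.67 of 0.

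Of the C/EBP relatives outside the members, Ddit3, the gene of the stress-induced dimer partner CHOP, rose. It read 173, 112 and 212 CPM in the vehicle libraries and 769, 884 and 1069 CPM with cisplatin, with no overlap (log2 fold change 2.45 ± 0.31, edgeR adjusted p = 1.3e-04). Cebpe, a factor of granulocytes, summed to 4 vehicle counts and 7 cisplatin counts, too few for a test. The lists that follow were written with earlier results of these data known, and each gene is represented by its most abundant probe. Their counts stand beside a median log2 fold change of -0.07 over all tested rows, of which 11.1% were called higher and 13.9% lower.

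Among 11 tested basic leucine zipper partners and rivals 6 rose and 1 fell, with a median log2 fold change of 1.37. Jun, an AP-1 subunit, went from 26.4 ± 9.78 to 353 ± 93.0 CPM (log2 fold change 3.74 ± 0.36, edgeR adjusted p = 3.5e-05). Fos, its dimer partner, rose by 2.04 ± 0.35, and the stress factor Atf3 rose by 3.06 ± 0.86. Atf3 passed the expression filter through its cisplatin counts, so nothing is read from its having risen. Atf5, a factor of the same stress pathway as ATF4, fell from 249 ± 47.5 to 40.7 ± 29.9 CPM (-2.61 ± 0.43, and -3.42 with cisplatin library 2 left out). Atf4, whose protein pairs with C/EBP proteins in the integrated stress response, was named after its values were seen. It read 245 ± 16.8 and 271 ± 43.8 CPM and was not called (0.14 ± 0.26). Leaving out cisplatin library 2 or vehicle library 3 left 3 genes that rose, leaving out vehicle library 1 left 2, and on library totals alone 3 rose and 2 fell. The Atf3 call was lost in the fits that omit cisplatin library 2 (edgeR adjusted p = 0.0510) and vehicle library 1 (0.0992), and its log2 fold change was 4.42 in the fit that omits vehicle library 3.

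The next list was built around signals known to induce Cebpb and Cebpd, and it also holds responders such as Socs3. Of its 17 tested genes 2 rose and 3 fell, shares near the 11.1% and 13.9% over all rows, with a median of -0.65. Socs3, a feedback inhibitor of cytokine receptors that STAT3 switches on, read 7.12, 1.26 and 2.76 CPM with vehicle and 16.1, 50.4 and 21.4 CPM with cisplatin. Its groups did not overlap (2.90 ± 0.71, edgeR adjusted p = 0.0095). Socs3 passed the expression filter through its cisplatin counts, so nothing is read from its having risen. The Socs3 call was lost when cisplatin library 2 (log2 fold change 2.27, edgeR adjusted p = 0.0723) or vehicle library 3 (0.0513) was omitted, and omitting vehicle library 1 gave 3.80. Rela, an NF-kappaB subunit, rose from 139 ± 16.1 to 418 ± 143 CPM (1.58 ± 0.30). The interleukin-1 receptor gene Il1r1 fell from 552 ± 46.1 to 100 ± 33.9 CPM (-2.46 ± 0.31), and the kinase gene Jak1 fell from 90.2 ± 13.2 to 17.4 ± 9.28 CPM (-2.38 ± 0.42). Without cisplatin library 2 or vehicle library 3 the number that rose was 1, and with library totals alone the number that fell was 6. The cytokine gene Il6, named after its values were seen, had 6, 2 and 1 counts with cisplatin and 0 in all vehicle libraries. On TMM-scaled library sizes this was 6.30-fold above a floor of 3 counts over the vehicle group. That fold leaves out the counting error of the few cisplatin counts. Lif, a relative of interleukin-6 likewise named afterwards, had 22, 9 and 0 counts in cisplatin libraries 1, 2 and 3 and 2, 0 and 1 in the vehicle libraries. The groups overlapped, and the ratio of their summed counts on the same scale was 21.7 (exact 95% counting interval 6.77 to 111).

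Known acute phase and inflammatory targets of C/EBP proteins were mostly too low to read. Of 24 genes 2 were tested, and both rose. Both passed the expression filter through their cisplatin counts, so nothing is read from both having risen. The chemokine gene Cxcl1 read 51.6, 27.6 and 85.8 CPM with cisplatin, and its vehicle signal was a single count in library 3. Timp1, a protease inhibitor, went from 8.05 ± 3.17 to 95.2 ± 13.9 CPM (3.52 ± 0.41). Among the untested genes, named after their values were seen, the lipocalin gene Lcn2 had 9, 7 and 4 cisplatin counts and 4, 5 and 10 vehicle counts. After TMM scaling these were 7.61, 6.65 and 4.29 CPM with cisplatin and 1.58, 3.16 and 3.94 CPM with vehicle, with no overlap on that scale. On library totals the groups overlapped, with 4 of 1366829 counts in cisplatin library 3 and 10 of 2272276 in vehicle library 3. The serum amyloid gene Saa1 had all 11 of its cisplatin counts in library 3 and 1 count in vehicle libraries 1 and 3.

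**Figure D4:**
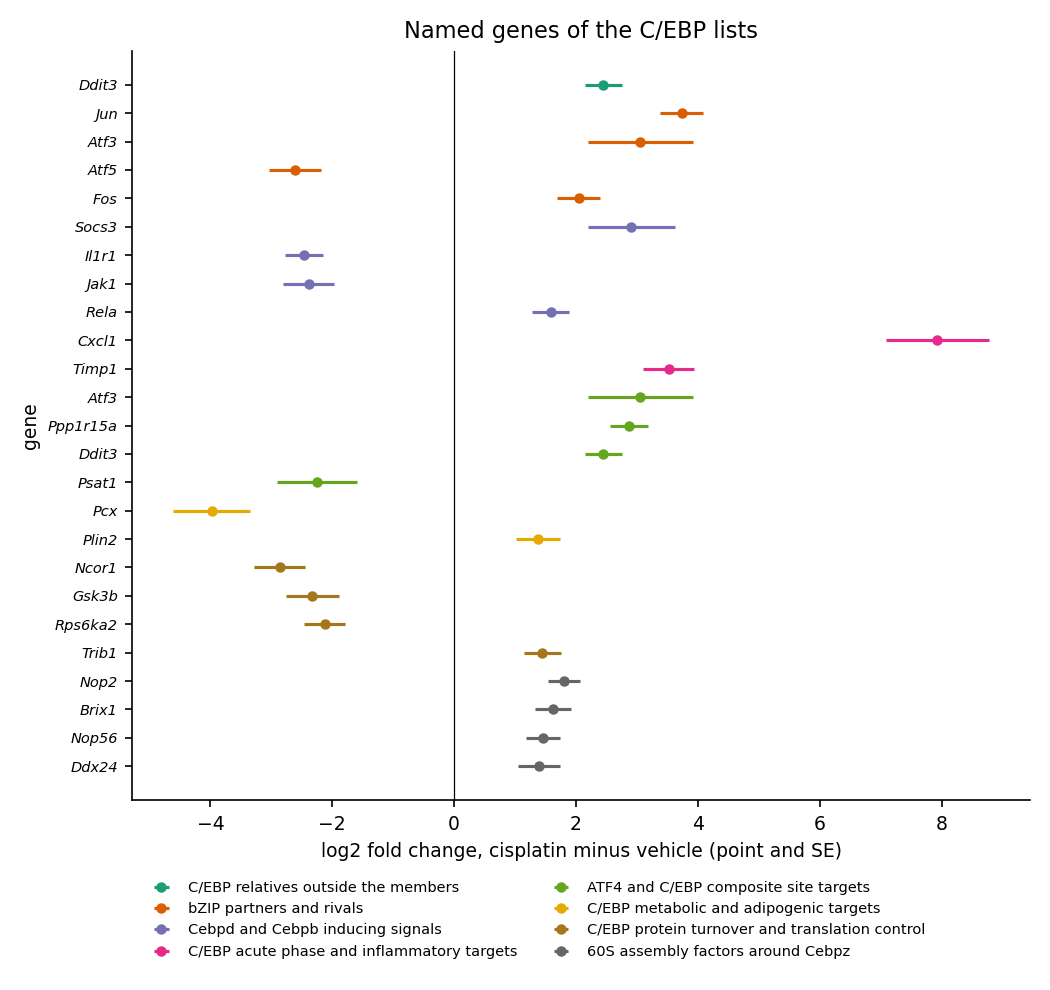
Log2 fold change of cisplatin minus vehicle with its SE for the tested genes named from each list (3 libraries per group), coloured by list. Atf3 and Ddit3 belong to 2 lists and appear 2 times. Jun lies at 3.74 and Timp1 at 3.52, close to the 3.54 of Cebpd, while Atf5, Il1r1, Jak1, Ncor1 and Gsk3b lie below -2.

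Genes that carry composite sites for ATF4 and C/EBP proteins did not move as one. Of 14 tested genes 4 rose and 4 fell, with a median of -0.89. Ppp1r15a, which restores translation after stress, rose from 280 ± 70.9 to 2049 ± 274 CPM (2.87 ± 0.31, edgeR adjusted p = 5.1e-05), and Ddit3 and Atf3, given above, belong to this list too. Psat1, an enzyme of serine synthesis, changed by -2.25 ± 0.66, and its call was lost without cisplatin library 2 or 3 or vehicle library 2 or 3 (edgeR adjusted p = 0.0586 to 0.156). It was at -2.86 without cisplatin library 1. Psat1 passed the expression filter through its vehicle counts and Atf3 through its cisplatin counts, so nothing is read from their directions. Without cisplatin library 2 or vehicle library 1 the number that rose was 2, and without vehicle library 3 the number that fell was 2.

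Metabolic and adipogenic targets were mostly low, with 4 of 18 genes tested. Untested Pparg, the gene of a master factor of fat cells, was named after its values were seen: it had 23, 16 and 15 counts with vehicle and 0, 1 and 2 with cisplatin, with no overlap. Pcx, the gene of pyruvate carboxylase, had 162, 70 and 163 counts with vehicle and 1, 2 and 8 with cisplatin (-3.98 ± 0.63, or -5.33 without cisplatin library 3 and -3.37 without library 1). Pcx passed the expression filter through its vehicle counts, so nothing is read from its direction. Plin2, a lipid droplet protein, rose by 1.38 ± 0.36, a call lost on library totals alone and in the fits that omit vehicle library 1 (edgeR adjusted p = 0.0562) or 3 (0.0765). Plin2 was the only gene of this list that rose, and 2 rose in the unfiltered fit, while with probes summed 2 fell.

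Of 11 tested genes that control C/EBP protein levels or activity 1 rose and 3 fell, with a median of -0.09, beside 11.1% higher and 13.9% lower over all rows. Trib1, whose protein brings C/EBP alpha to its ubiquitin ligase, rose from 87.2 ± 12.8 to 238 ± 70.8 CPM (1.45 ± 0.30, edgeR adjusted p = 0.0036). Its groups did not overlap on the TMM scale but did on library totals, where it was not called (0.97, edgeR adjusted p = 0.0510). The kinase gene Gsk3b fell from 49.4 ± 8.29 to 9.77 ± 1.88 CPM (-2.33 ± 0.44). Gsk3b passed the expression filter through its vehicle counts, so nothing is read from its direction. Ncor1, a corepressor, fell by 2.86 on the log2 scale, with -2.005 when its probes were summed, and the kinase gene Rps6ka2 fell by 2.12. The number that rose was 2 with cisplatin library 3 omitted.

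Beside Cebpz, 21 tested assembly factors of the large ribosomal subunit had a median of 0.33, and 4 rose. None was called lower by edgeR, by DESeq2 or at an unadjusted p under 0.05, while DESeq2 called 6 higher, as many as passed unadjusted. The nucleolar methyltransferase gene Nop2 went from 128 ± 6.80 to 447 ± 62.3 CPM (1.81 ± 0.26, edgeR adjusted p = 3.4e-04), and Brix1 from 86.7 ± 20.1 to 265 ± 52.8 CPM (1.62 ± 0.29). Nop56 rose by 1.46 ± 0.28 and the helicase gene Ddx24 by 1.39 ± 0.34. The Ddx24 call was lost on library totals alone and when vehicle library 1 was omitted (adjusted p = 0.0575). Noc2l, whose yeast relative pairs with that of Cebpz, was named after its values were seen and was not called (1.01 ± 0.38, adjusted p = 0.0677). Ndufaf7, a neighbour of Cebpz, had 4 counts in each group.

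The rows most like each member over the 6 libraries were found by Pearson correlation of log2 CPM among 7887 tested rows (7886 for Cebpb and 7888 for Cebpa) of other genes with a mean of 10 CPM or more. For Cebpd they were Bloc1s2, Trim21, Hypk, Hdgf and Lzic, with r from 0.997 to 0.999. Bloc1s2 went from 90.2 to 699 CPM and Trim21 from 15.2 to 67.7 CPM. For Cebpb probe 30534 they were Tsen34, Trim26, Med25, Zmynd15 and Rac1, with r from 0.994 to 0.998. For Cebpa probe 30781 they were Gm28539, Zfp707, Dnajb2, Gm10479 and Tmod2 (0.972 to 0.992), and for Cebpz Mtrf1l, Ube4a, Erg28, Cct5 and Ube2k (0.985 to 0.994). The 6 points share the treatment difference and the library scale, and with so many rows compared over 6 libraries the likeness is a description.

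Macrophages also express Cebpa, Cebpb and Cebpd, so their markers stand beside these results. Of 15 listed macrophage markers 8 were tested and 5 fell, beside 13.9% called lower over all tested rows. All 5 passed the expression filter through their vehicle counts, so nothing is read from the number that fell. Summed over the list, the signal was 180 to 330 unscaled CPM with vehicle and 17.0, 43.8 and 51.2 unscaled CPM in cisplatin libraries 1, 2 and 3. The most abundant of them, H2-Aa and C1qb, had 54 to 114 and 50 to 100 counts with vehicle and 0 to 5 and 6 to 14 with cisplatin. Csf1r, the receptor gene that defines macrophages, had 22 to 26 counts in each vehicle library and 1 count over the cisplatin arm. Adgre1 and H2-Ab1 had 4, 0 and 6 and 6, 0 and 2 vehicle counts and 0 in all cisplatin libraries, and Mrc1 was at 0 in all 6 libraries. C1qa (-3.03 ± 0.60, SE) and Cd74 (-4.80 ± 0.94) also fell, with no overlap. Cd68 and Lyz2 overlapped between the groups. Cd68 had 16, 6 and 13 vehicle counts and 0, 12 and 9 cisplatin counts, and Lyz2 had 41, 17 and 39 and then 0, 0 and 19. Tyrobp (-1.51 ± 0.58) did not overlap and Fcer1g (-0.38 ± 1.01) did, and neither was called. The part of macrophage RNA in the Cebpa, Cebpb and Cebpd values was not tested. Some markers of islet, endothelial and stromal cells moved in the same contrast. Of 8 tested beta cell markers 4 fell, the maturity genes Mafa (-2.90 ± 0.32) and Ucn3 (-2.73 ± 0.43), the glucose-6-phosphatase gene G6pc2 (-2.07 ± 0.32) and the factor gene Nkx6-1 (-1.93 ± 0.29). Gcg and Irx1 fell among 5 tested alpha cell markers. Of the vascular markers Kdr, Eng and Rgs5 fell and Esam, also of endothelial cells, rose by 1.19 ± 0.40. Ucn3, Irx1, Kdr, Eng and Rgs5 likewise passed the filter through their vehicle counts, so nothing is read from their direction. The part of these cell types in the C/EBP values was not tested either.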

How the data were processed

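TempO-Seq libraries of islets from 3 mice, each with a cisplatin and a vehicle arm, were analysed from raw counts per probe, which the authors deposited as whole numbers. Tools listed, without roles, in the submitters' processing notes are DESeq2 1.44.0, STAR 2.7.10b and fastp 0.23.2. The alignment reference is not given in the sources used here, and RefSeq tables on GRCm38.p6 were used for promoter sequences and gene neighbours only. Rows passing edgeR 4.0.16's expression filter (minimum count 10, 9381 rows) were scaled with TMM factors and tested by the quasi-likelihood F-test in R 4.3.3, with treatment as the only term and Benjamini-Hochberg adjustment over all rows. Each SE is the absolute log2 fold change divided by the square root of F. Mouse differences used 0.5 added counts, and correlations log2 CPM with a prior count of 2. Amplified reads are not separate molecules, so intervals and floors show counting error alone.

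Members and lists were chosen with earlier results of these data known. Named were every member row, the 5 rows closest in pattern to each member, and per list up to 4 called genes ranked by size of change (if none was called, the 2 most abundant). Cdkn1a and genes said to be chosen afterwards were added. The plan also named the 2 most abundant markers of each cell type. Those of several cell types are left out here, among them Ins2, Ttr, Sst, Ppy and Spp1. Cebpe and the markers beyond the 2 most abundant of their cell type were also named after their values were seen. The labels give both libraries of a mouse 1 identifier, and their deviations from the group means correlated at -0.116, 0.0336 and 0.219, against -0.227 to 0.168 for libraries of different mice, highest for cisplatin library 1 with vehicle library 2. All pairs of libraries in a group differed by more than sampling noise. Alternatives were RLE, upper quartile or no scaling factors, 2 other filters, DESeq2 1.42.0, probes summed per gene, a mouse block and each library left out.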

Additional observations from a re-analysis of the deposited data

How the results depend on the processing

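All 14 alternative analyses were run, and no called value changed sign. With library totals as the only scale 459 rows were called higher and 2023 lower, against 1040 and 1304. Leaving out 1 library gave 1085 to 2538 called rows, 504 to 1244 higher and 581 to 1294 lower, lowest without vehicle library 1; without vehicle library 3 the count was 1321. The number of C/EBP rows called was 1 on library totals, 1 in the unfiltered fit and 1 to 3 with single libraries left out. With the mouse as a replicate block 2197 rows were called, and 3 C/EBP rows; among the single genes followed, only Lzic lost its call (edgeR adjusted p = 0.0669). Of 488 single values over 35 followed rows, 448 kept their status as called or not called, and 40 lost the call. Rows that were not called could change sign within the 448. Cebpa probe 74025 ran from -1.37 to 0.11 and Cebpz from -0.46 to 0.26. Of 252 list counts 18 moved by more than 1.5 times. The causes were not tested. With at most 5 counts per group, the rows of Cebpg and of Cebpd probe 30192 could not be tested.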

Other observations

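The liver-secreted proteins among the acute phase targets, named after their values were seen, were unevenly spread over libraries rather than over treatments. Fga, Fgb and Fgg, the fibrinogen chain genes, and Hp, the haptoglobin gene, summed to 96 counts in cisplatin library 1 and 69 in vehicle library 2, which the labels give to different mice. The other 4 libraries held 0, 1, 1 and 8 counts. Fga alone had 32 counts in cisplatin library 1 and 25 in vehicle library 2. Cebpd read 327 CPM in cisplatin library 1 and 29.0 CPM in vehicle library 2, each the lowest of its arm on the TMM scale, while on library totals cisplatin library 2 was lowest in its arm. Where this signal comes from was not tested.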
